A study of Mus musculus with 2 samples.

Results

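Nuclear-encoded subunits of the mitochondrial respiratory chain were followed in 2 mouse germ cell lines by digital gene expression, a method in which 1 short sequence tag stands for 1 transcript. The set holds 59 genes named by symbol, of which 29 belong to complex I, 4 to complex II, 7 to complex III, 10 to complex IV and 8 to complex V, with cytochrome c as the remaining gene. For each gene the sense tags that matched no other gene, pseudogenes aside, were added up and scaled to 1000000 clean tags of the library (TPM). Such tags were listed for 57 of the 59 genes, out of 14295 genes with a tag in either library.

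GC-1spg is a line made from type B spermatogonia of a 10 day old mouse with pSV3-neo, and is described as lying between that stage and the primary spermatocyte. GC-2spd (ts) was made from spermatocytes of a 6 week old mouse with the SV40 large T antigen, and is described as premeiotic and no longer able to differentiate. Both lines were kept in DMEM with serum and gave 1 library each, so every difference below is one between 2 libraries, with no replicate check, and line, donor age and transforming construct cannot be told apart. The libraries held 5072149 clean tags for GC-1spg and 4726808 for GC-2spd (ts), so that 1 copy was worth 0.197 and 0.212 TPM. Of 17 germ cell markers, 16 had no tag in either library and Spo11 had 2 copies in GC-1spg alone, so neither library showed the defining markers of its labelled cell type. Of 25 markers of Sertoli, Leydig, myoid and fibroblast cells, 18 had a tag, with 2826 TPM in GC-1spg against 1182 TPM in GC-2spd (ts) when summed. Col1a1 had the largest level in each library with 2063 and 513 TPM, while Col1a2 (605 and 907 tags) and Col3a1 (50 and 120) lay the other way. Of the Sertoli markers Wt1 had 620 tags in GC-1spg against none in GC-2spd (ts), but Gata4 had 29 and 138 and Sox9 29 and 46. Acta2, a myoid marker, had 50 and 555, and the part of these markers in the results below was not tested.

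The respiratory chain passes electrons from NADH (complex I) and succinate (complex II) through ubiquinone to complex III, cytochrome c and complex IV, where oxygen is reduced. Complexes I, III and IV pump protons across the inner mitochondrial membrane, and complex V, the ATP synthase, makes ATP from the return flow. The genes studied here lie on nuclear chromosomes, and their proteins are imported into mitochondria and joined with a small set of subunits made from mitochondrial DNA, except in complex II, which is wholly nuclear encoded. In the testis, spermatogonia are known to rely largely on glycolysis, whereas spermatocytes make more use of oxidative phosphorylation.

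The values rest on single tags, so the tag with the most copies is shown for each gene that passed the threshold defined below. Capitals mark the CATG at which the enzyme NlaIII cut the cDNA, and the 17 bases that follow it identify the transcript.
Ndufb7: CATGaaggagtttgaacgtga
Ndufa13: CATGaaggatgtgcccaactg
Sdhc: CATGctttcaatccccttgga
Ndufb10: CATGaacatcatccaggagag
Ndufb5: CATGgcaagagactgtttgtc
Sdha: CATGccctgacttccttgaaa
Ndufb11: CATGgaatccaactacttcga
Atp5j: CATGaattagttgtacaacta
Ndufa4: CATGttgattttttttttttt
These tags were placed on the mouse genome GRCm38 through the GENCODE M21 transcripts. The Ndufb7 tag lies at chr8:83571445-83571465 (plus strand), the Ndufa13 tag at chr8:69894345-69894365, the Ndufb5 tag at chr3:32744877-32744897 (plus strand) and the Ndufb11 tag at chrX:20615453-20615473, all within coding sequence. The Sdhc tag at chr1:171129664-171129684, the Sdha tag at chr13:74322305-74322325, the Atp5j tag at chr16:84827907-84827927 and the Ndufa4 tag at chr6:11900412-11900432 lie in 3′ UTRs. The Ndufb10 tag at chr17:24722482-24722502 lies in an exon of a transcript annotated as noncoding. Those with no strand given here are on the minus strand. Apart from the CATG the Ndufa4 tag is made almost wholly of T, which leaves it few bases that tell it from other T-rich tags.

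The tags of the set were placed against the NlaIII sites of the annotated transcripts. Of the 52 members with a tag of 30 copies or more, 51 had their most frequent tag at the NlaIII site nearest the 3′ end of a transcript, and these sites held 98.6% of the members' tags in GC-1spg against 98.9% in GC-2spd (ts). A site counted as nearest if it was so in any annotated transcript of the gene. Several sites of a gene can therefore count, as in Ndufb5, and these shares do not test where the tags should lie. The most frequent tag made up a median of 96.9% of the tags of its gene. By annotation it lay in coding sequence for 24 genes and in a 3′ UTR for 20. Many of these transcripts are short: Ndufa1, Ndufa2, Cox7a2 and Cox7c each offered a single reference tag.

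Summed over the set, the respiratory chain transcripts were nearly level between the lines. The members held 63166 tags (12454 TPM) in GC-1spg against 62483 tags (13219 TPM) in GC-2spd (ts), a ratio of 1.06 with an exact 95% counting interval of 1.05 to 1.07. All genes with a tag, summed the same way, gave a ratio of 1.06 as well. The log2 ratio of the members' sum (always GC-2spd (ts) over GC-1spg) was 0.09, and turned to -0.09 under TMM scaling and to -0.03 when tags shared between genes were counted. In bulk cultures such as these, fewer cells of a kind and less RNA per cell cannot be told apart.

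The sums of the complexes ranged far more widely among themselves than between the lines. They cover 29, 4, 7, 10 and 8 listed genes for complexes I to V, so their order is not that of the level per gene. Tags do not scale with the length of a transcript, so no length correction was made. A level still depends on which tags of a gene are unambiguous, so comparisons between genes are comparisons of such tags. Complex I summed to 3870.15 TPM in GC-1spg against 4073 TPM in GC-2spd (ts), for a log2 ratio of 0.07 that turned to -0.11 under TMM scaling, -0.01 when scaled to unambiguous tags and -0.24 with shared tags counted, 1 of which matches 774 other genes. Complex V summed to 3703 and 4228 TPM, a log2 ratio of 0.19 with an interval of 0.16 to 0.22 that came to 0.01 under TMM scaling. Complex IV stood at 3364 and 3359.8 TPM, and its log2 ratio of 0.00 had an interval of -0.03 to 0.03, moving to 0.10 when sense matches were preferred and to -0.18 under TMM scaling. Complex III summed to 1276 and 1226 TPM, with a log2 ratio of -0.06, which became -0.24 under TMM scaling and -0.30 with pseudogenes kept as matches. Complex II had the smallest sum, with 238 and 327 TPM, and the largest difference of the 5 sums. Its log2 ratio was 0.46 (interval 0.35 to 0.57) and stood at 0.28 under TMM scaling. The sums of complexes IV and III leave out most tags of Cox5a, Cox5b and Uqcrc2, as described below. Ndufa4 (2772 and 745 tags) is counted in complex I, though its product was later assigned to complex IV. The log2 ratios of both sums depend on that choice.

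**Figure D1:**
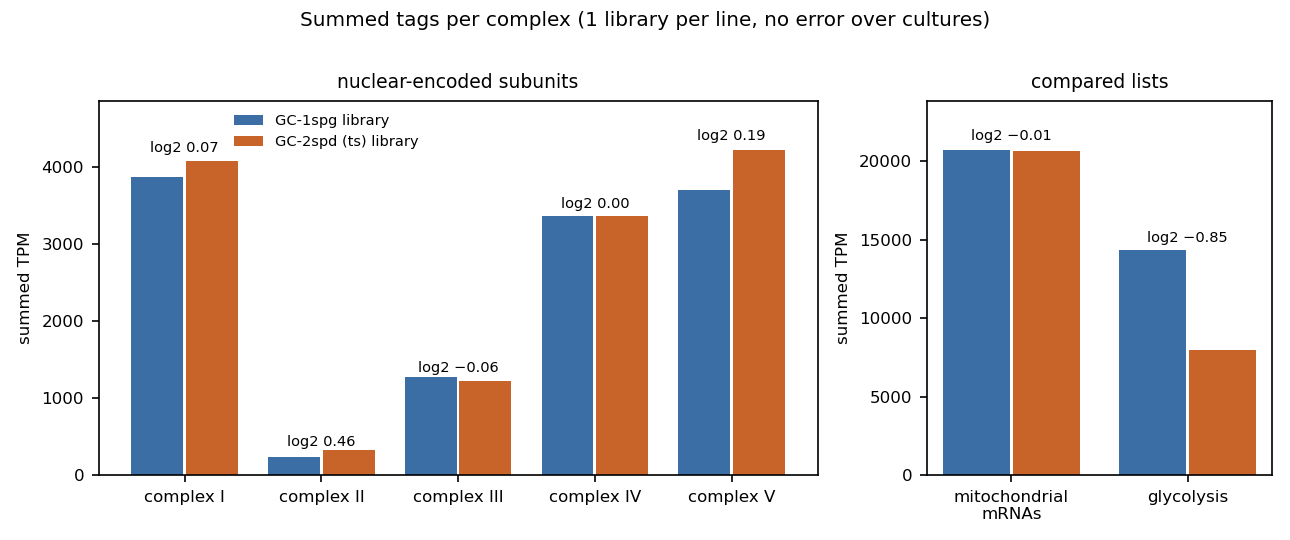
Summed TPM of the nuclear-encoded subunits of each complex (left) and of the mitochondrially encoded mRNAs and the glycolytic enzymes (right), with GC-1spg in blue, GC-2spd (ts) in orange and the log2 ratio of GC-2spd (ts) over GC-1spg above each pair. The 5 complexes lie between -0.06 and 0.46, while the glycolytic genes fell from 14347 to 7978 TPM in sum.

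Single subunits spanned a wide range of levels. The most abundant was Atp5b, the catalytic beta subunit of the ATP synthase, with 7510 tags (1481 TPM) in GC-1spg against 6281 tags (1329 TPM) in GC-2spd (ts). By tags over both libraries the leading gene of complex IV was Cox6c, a small membrane subunit, with 3807 and 4194 tags. In complex I it was Ndufa2, an accessory subunit, with 2307 and 1882 tags, although Ndufa4 and Ndufa6 had more in GC-1spg and Ndufa1 more in GC-2spd (ts). The leading genes of complexes II and III were Sdhd with 547 and 463 tags and Uqcrq with 2268 and 1901. Subunits of 1 complex are present once in the assembled enzyme in most cases, yet their tags were far from equal. In GC-1spg, the complex I genes with 100 tags or more over both libraries ran from 16.2 TPM for Ndufb8 to 547 TPM for Ndufa4. Without Ndufa4, later assigned to complex IV, the range ended at 459 TPM for Ndufa6. The Ndufb8 value leaves out a tag shared with another gene.

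**Figure D2:**
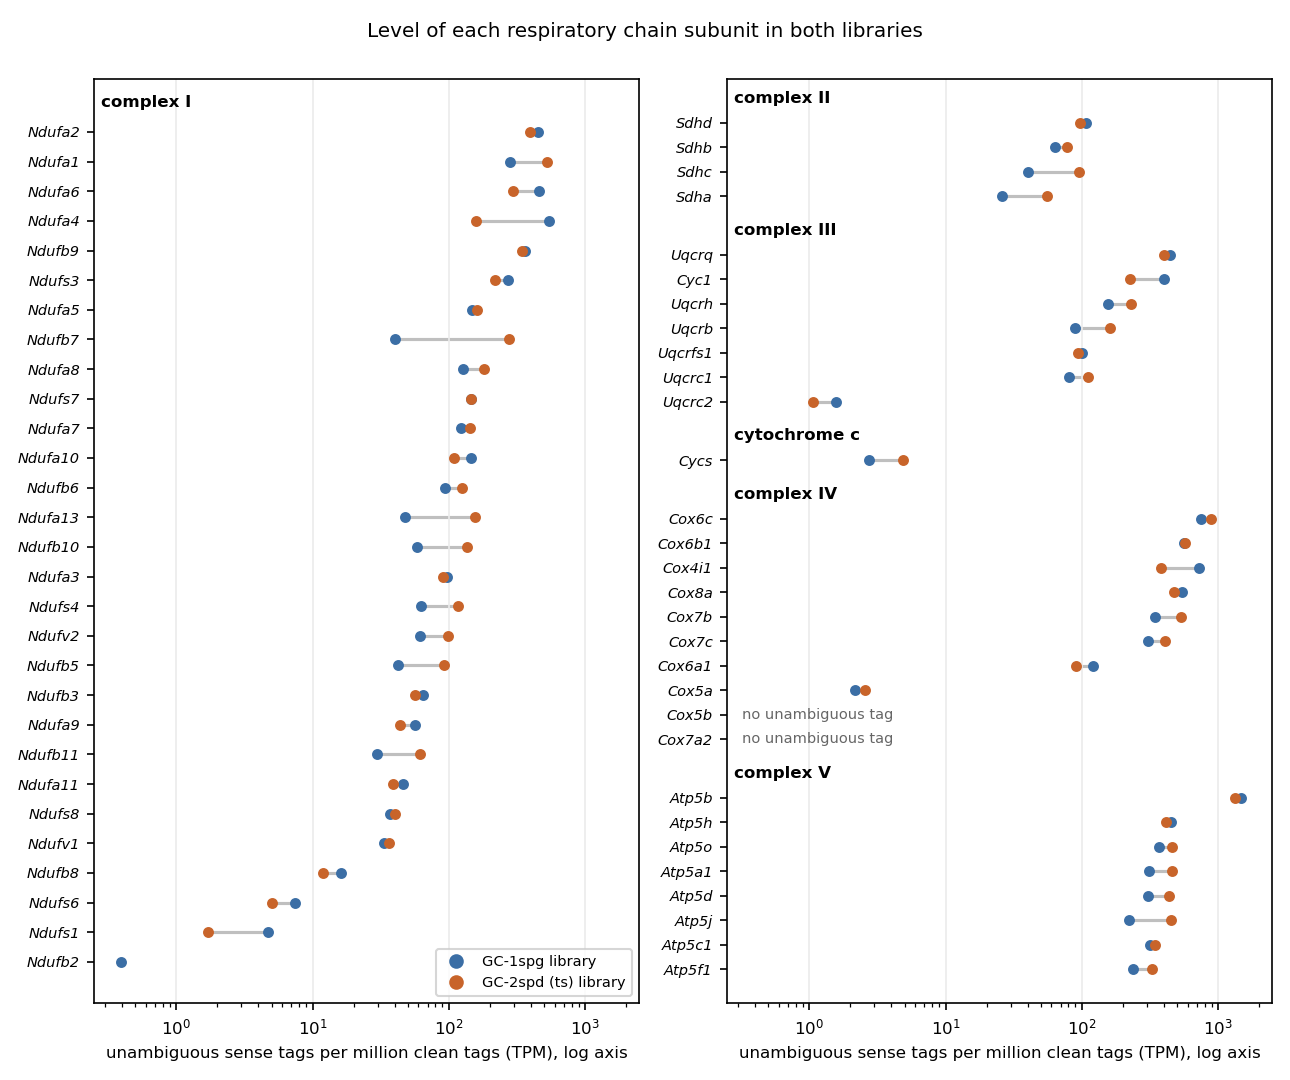
TPM of each of the 59 genes on a log axis, grouped by complex and ordered by tags over both libraries, with GC-1spg in blue and GC-2spd (ts) in orange. Most pairs of points lie close together compared with the spread between genes, and the widest pairs are Ndufb7 (40.6 and 277 TPM) and Ndufa4 (547 and 158 TPM).

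A gene was called when the two-sided Audic-Claverie test, which compares the counts of 2 libraries, gave a false discovery rate of at most 0.001 over the 14295 genes and the log2 ratio was at least 1 in size. By this rule 8 of the 59 members were higher in GC-2spd (ts), or 13.6%, beside 11.9% of all genes tested. A single member was lower, or 1.69%, beside 7.95% of all genes. The median log2 ratio of the 56 members listed in both libraries was 0.13, beside 0.17 over the 11383 genes listed in both. Among the 51 members with 100 tags or more, the 95% interval lay wholly above 0 for 26, wholly below 0 for 13 and included 0 for 12, and over all 7167 such genes it lay above 0 for 44.8% and below 0 for 26.3%. The lower and upper quartiles of the log2 ratio of these 51 members were -0.17 and 0.61, beside -0.33 and 0.75 for all genes of that depth. With TMM scaling the log2 ratio of any gene that both libraries list moved by -0.18. The scaling changed the calls over all genes from 1694 higher and 1137 lower to 1290 higher and 1460 lower, and those of the members from 8 and 1 to 4 and 3. If replicate cultures varied with a biological coefficient of variation of 0.2, an assumed value, Ndufb7 and Ndufa4 would be the remaining calls among the members, and at 0.4 there would be none.

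**Figure D3:**
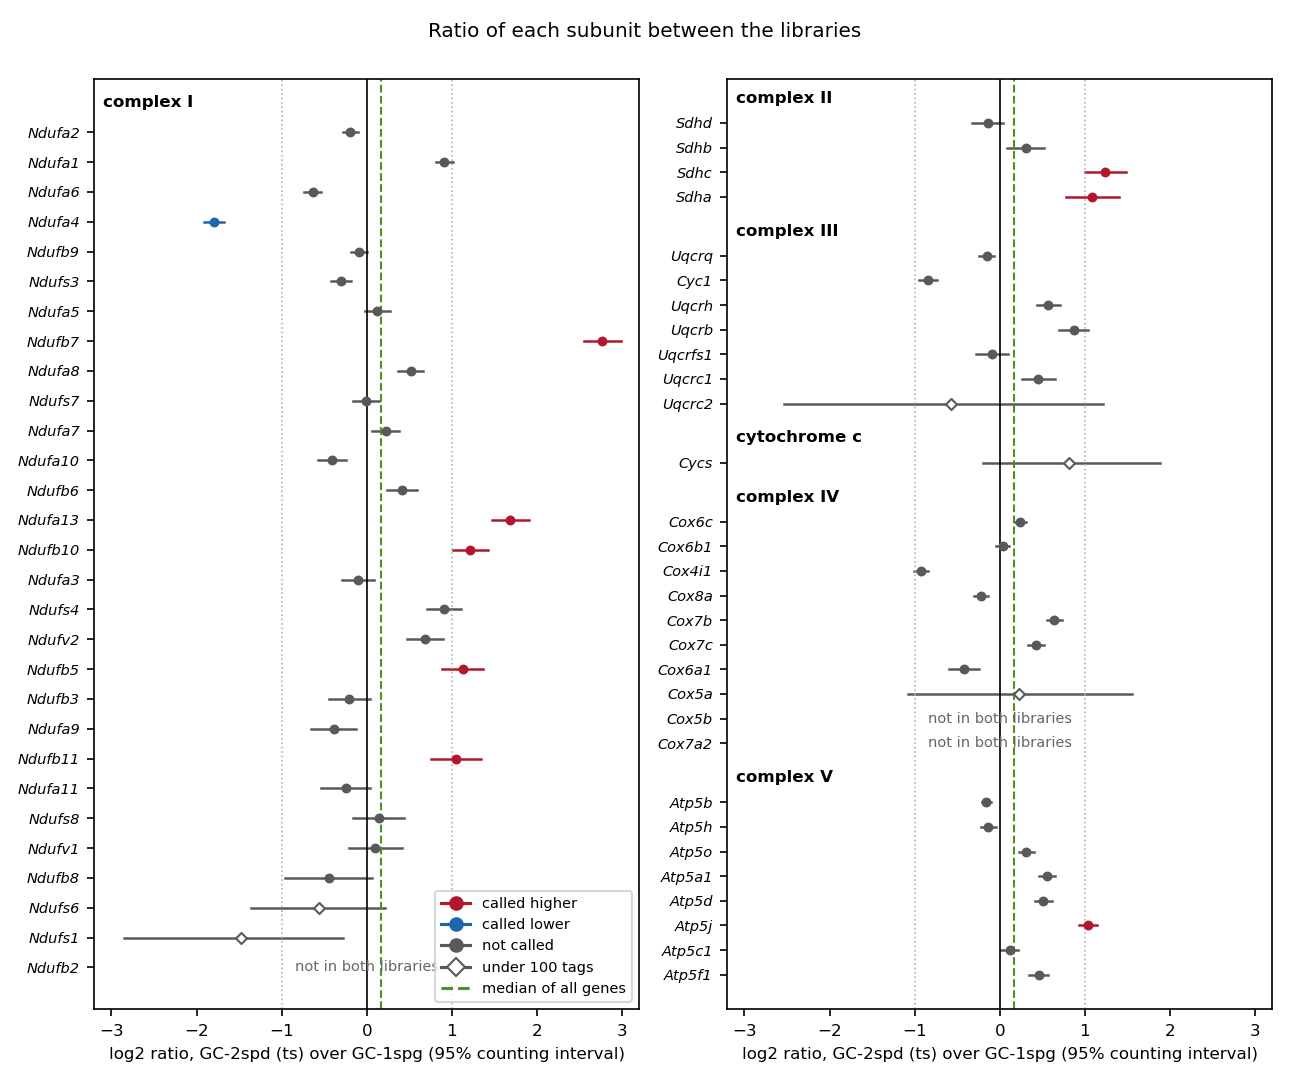
Log2 ratio of GC-2spd (ts) over GC-1spg for each gene with its exact 95% counting interval, with called genes in colour, genes under 100 tags as open diamonds, the threshold of 1 as dotted lines and the median of all genes (0.17) as a dashed line. The 8 genes called higher run from Atp5j (1.04) to Ndufb7 (2.77), and Ndufa4 (-1.79) is the gene called lower.

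In complex I, NADH enters at a matrix arm built from the flavoprotein and iron-sulfur subunits, and protons are pumped by a membrane arm. Among the core subunits of the matrix arm with 100 tags or more over both libraries, Ndufv1, Ndufs7 and Ndufs8 differed least. Ndufv1, which holds the flavin and the NADH site, had 171 tags in both libraries. Ndufs7 and Ndufs8, which carry the last iron-sulfur clusters before ubiquinone, had 739 and 686 tags and 187 and 192 tags, and the intervals of all these log2 ratios included 0. Ndufs3, a core subunit of the quinone module, had 1375 and 1037 tags, a log2 ratio of -0.31. Ndufv2, an iron-sulfur partner of Ndufv1, had 312 and 466 tags (log2 ratio 0.68), short of the threshold. Ndufs1, the largest iron-sulfur subunit, was left with 24 and 8 tags, too few to place.

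The accessory subunits of complex I held its calls, among them Ndufb genes, whose products belong to the membrane arm. Over the 9 Ndufb genes the sum was 712 TPM in GC-1spg against 1103 TPM in GC-2spd (ts), for a log2 ratio of 0.63 with an interval of 0.57 to 0.69, and 4 of the 9 were called higher, beside 11.9% of all genes. Ndufb7, a cysteine-rich subunit on the intermembrane space side, had 206 tags in GC-1spg against 1307 in GC-2spd (ts), 6.81-fold higher with an interval of 5.87 to 7.92. Without it the sum of the other 8 Ndufb genes had a log2 ratio of 0.30 (interval 0.23 to 0.37). Ndufb10, another cysteine-rich subunit of the same side, had 297 and 644 tags (2.33-fold, interval 2.02 to 2.68). Ndufb5 had 215 and 438 tags (2.19-fold, 1.85 to 2.59), but its log2 ratio was 0.95 under TMM scaling and 0.17 when shared tags were counted, chiefly 1 that matches 42 other genes. Ndufb11, an X-linked subunit, had 152 and 293 tags (2.07-fold, 1.69 to 2.53), with a log2 ratio of 0.87 under TMM scaling and 0.97 when scaled to unambiguous tags. The other Ndufb genes of the set were not called: Ndufb6 had a log2 ratio of 0.42, Ndufb9 of -0.09, Ndufb3 of -0.20 and Ndufb8 of -0.45, and Ndufb2 was listed with 2 copies in GC-1spg alone. Outside the set and its sum, Ndufb4 had 17 and 2 tags (log2 ratio -2.99) and was not called.

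The Ndufa genes went both ways. Their sum was 2535 TPM in GC-1spg against 2306 TPM in GC-2spd (ts), for a log2 ratio of -0.14. Of the 12 genes, 1 was called higher and 1 lower, or 8.33% each, beside 11.9% and 7.95% of all genes. Ndufa13, also known as GRIM-19 and studied as a regulator of cell death, had 244 and 733 tags, 3.22-fold higher in GC-2spd (ts) with an interval of 2.79 to 3.74. Ndufa4 had 2772 tags in GC-1spg against 745 in GC-2spd (ts), 3.47-fold lower with an interval of 3.197 to 3.76. Its product was first named as a complex I subunit and was later assigned to complex IV. The gene is counted here with complex I, so the values given for complex IV leave it out. The T-rich tag shown above gave 2687 and 712 of these tags, and a second tag of ordinary sequence in the coding sequence (CATGgaacaaactgggtccca) gave 41 and 12, so both tags of the gene lay in the same direction.

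Next in size among the Ndufa genes came Ndufa1, a small membrane subunit, with 1423 and 2498 tags (log2 ratio 0.91), just under the threshold. Ndufa6, a subunit of the matrix arm, had 2328 and 1396 tags (log2 ratio -0.64). Ndufa8 stood at 0.52, Ndufa10 at -0.40 and Ndufa9 at -0.39, with intervals that did not include 0. Ndufa2 (-0.19) and Ndufa7 (0.22) differed by less still, and the intervals of Ndufa3, Ndufa5 and Ndufa11 included 0. Of the accessory subunits named Ndufs, Ndufs4, which is needed for a stable NADH module, had 317 and 553 tags (log2 ratio 0.90), and Ndufs6 had 38 and 24 tags.

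Complex II, succinate dehydrogenase, joins the chain to the citric acid cycle. Sdha, its flavin-bearing catalytic subunit, had 132 tags in GC-1spg against 261 in GC-2spd (ts), 2.12-fold higher with an interval of 1.71 to 2.64, and its log2 ratio of 1.09 became 0.91 under TMM scaling. Sdhc, 1 of its membrane anchors, had 204 and 450 tags, 2.37-fold higher (2.002 to 2.81). Their partners did not follow. Sdhb, the iron-sulfur subunit, had 322 and 371 tags (log2 ratio 0.31), and Sdhd, the other anchor, had 547 and 463 tags (log2 ratio -0.14) whose interval included 0. The Sdhd value counts 64 copies of a tag with 1 mismatch, listed in GC-2spd (ts) alone. Its main tag by itself had 529 and 392 copies (log2 ratio -0.33), with an interval of -0.52 to -0.14. The intervals of the paired subunits were apart: that of Sdhc (1.001 to 1.49) lay above that of Sdhd (-0.32 to 0.04), and that of Sdha (0.78 to 1.40) above that of Sdhb (0.09 to 0.53).

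None of the 7 members of complex III was called, beside 11.9% of all genes called higher and 7.95% lower. So few genes cannot be told from these shares. Cyc1, cytochrome c1, had 2039 tags in GC-1spg against 1062 in GC-2spd (ts), for a log2 ratio of -0.84 that reached -1.02 and was called lower under TMM scaling. Uqcrfs1, the Rieske iron-sulfur protein and the other redox subunit of the set, had 506 and 443 tags with an interval that included 0. The small subunits lay on the other side of 0 in part: Uqcrb, which sits by the ubiquinone site, had 450 and 765 tags (log2 ratio 0.87), and Uqcrh, the hinge protein next to cytochrome c1, had 792 and 1096 tags and 0.57. Pseudogenes also hold the tags of both: with these kept as matches Uqcrb had no tag left and Uqcrh had 35 and 62. Uqcrq had 2268 and 1901 tags (log2 ratio -0.15). Of the core proteins, Uqcrc1 had 409 and 522 tags (0.45), and Uqcrc2 was left with 8 and 5. The interval of Cyc1 was -0.95 to -0.73, and that of Uqcrb, with pseudogenes set aside, was 0.70 to 1.04.

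Complex IV, listed here without Ndufa4, had no called member either among its 8 genes with a tag. Over all genes 11.9% were called higher and 7.95% lower, and 8 genes cannot be told from these shares. Cox4i1, the main isoform of the subunit at which ATP regulates the enzyme, had 3701 tags in GC-1spg against 1816 in GC-2spd (ts), for a log2 ratio of -0.93, and was called lower under TMM scaling (-1.11) and when scaled to unambiguous tags (-1.01). Cox6a1 had 614 and 428 tags (-0.42) and Cox8a had 2789 and 2235 (-0.22). At the other end, Cox7b had 1747 and 2539 tags (log2 ratio 0.64), and Cox7c had 1555 and 1950 and 0.43, though none was left to Cox7c with pseudogenes kept as matches. These are all small subunits around the mitochondrially encoded core. Cox6c stood at 0.24, and Cox6b1, on the intermembrane space side, had 2839 and 2707 tags with an interval of -0.04 to 0.11.

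Complex V had 1 called member, or 12.5% of its 8 genes called higher, beside 11.9% of all genes. Atp5j, the F6 protein of the peripheral stalk, had 1123 tags in GC-1spg against 2149 in GC-2spd (ts), 2.05-fold higher (1.91 to 2.21), with a log2 ratio of 0.86 under TMM scaling and 0.96 when scaled to unambiguous tags. In the F1 head, Atp5a1, the alpha subunit, had 1590 and 2180 tags (0.56) and Atp5d, the delta subunit, 1556 and 2069 (0.51), while Atp5b stood at -0.16. Atp5c1, the gamma subunit that turns within the head, had 1610 and 1630 tags, and its log2 ratio of 0.12 became -0.06 under TMM scaling. Of the other stalk subunits, Atp5f1 stood at 0.46, Atp5o at 0.31 and Atp5h at -0.13. The value of Atp5f1 rests on tags that a pseudogene also holds: with pseudogenes kept as matches it had 16 and 12 tags and -0.31.

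For 15 members a second tag of 50 copies or more, listed in both libraries, gave another reading of the ratio from the same gene. The log2 ratios of both tags had the same sign in 11, and their intervals overlapped in 9 and were apart in 6. Ndufa4 and Sdha, both called, gave like values from both tags: the Sdha tags had 68 and 151 copies and 49 and 85. In other genes the tags disagreed, as in Ndufv2 and Ndufb5.
Ndufv2, most copies: CATGctgcgagattctgacag
Ndufv2, second: CATGtcatttttatcagtgaa
Ndufb5, most copies: CATGgcaagagactgtttgtc
Ndufb5, second: CATGaggttcaggtgatgtgt
The first Ndufv2 tag, in the coding sequence at chr17:66087432-66087452 (minus strand), had 231 and 399 copies (log2 ratio 0.89), and the second, in the 3′ UTR at chr17:66079241-66079261, had 69 and 47 (-0.45). The first Ndufb5 tag had 162 and 392 copies (1.38), and the second, in the 3′ UTR at chr3:32751256-32751276, had 40 and 28 (-0.41). In Ndufb5 the call therefore rests on the tag in the coding sequence. Minor tags of Atp5h and Cox6c, with 119 and 20 copies and 74 and 19 copies, had log2 ratios of -2.47 and -1.86 beside -0.07 and 0.27 for the main tags. Which transcripts of a gene the tags come from was not tested.

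**Figure D4:**
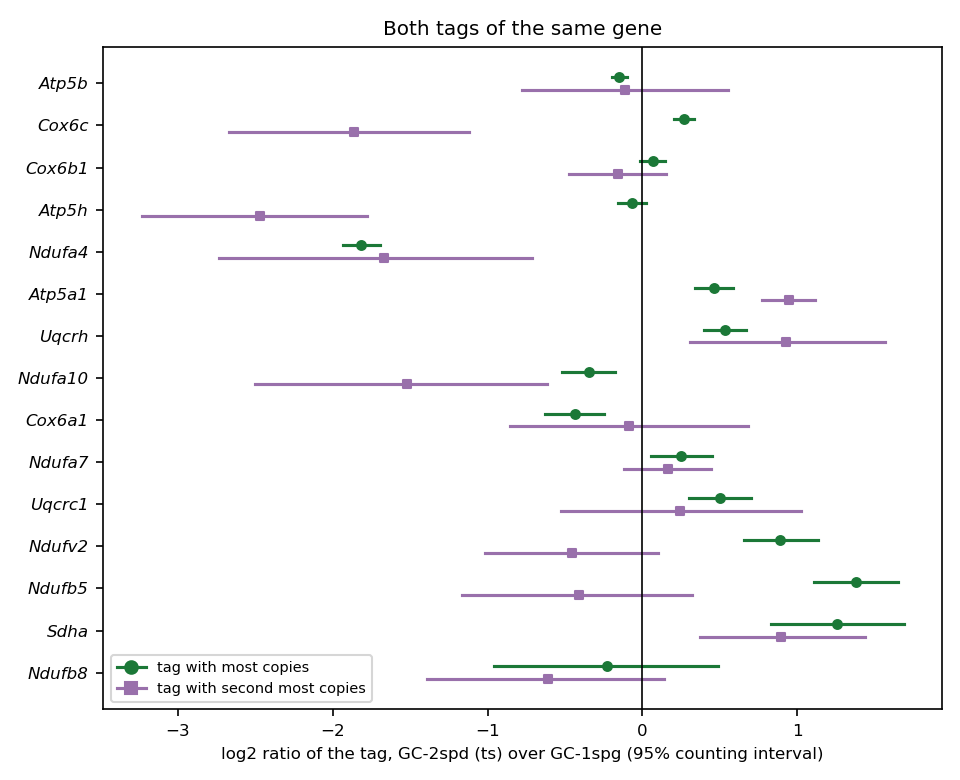
Log2 ratio of GC-2spd (ts) over GC-1spg with exact 95% counting intervals for the tag with the most copies (green circles) and the tag with the second most copies (purple squares) of 15 members, ordered by the copies of the first tag. The intervals are apart in 6 genes, among them Ndufb5 and Ndufv2, and the second tag of Cox6b1 differs from the first by 1 base.

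A feature that the choice of genes did not use was their place in the genome. For each of the 51 members with 100 tags or more, the median log2 ratio of all other genes of that depth within 5 Mb was taken, over 8 to 132 genes. The members' log2 ratios followed these medians, with Pearson's r = 0.70 and Spearman's rho = 0.67 over 51 genes, and 0.61 and 0.63 without Ndufb7 and Ndufa4. The points share both libraries, and 4 pairs of members lie within 5 Mb of each other, so they are not independent. Where the neighbours' median was above 0 the member was above 0 in 25 of 33 cases, and where it was below 0 the member was below 0 in 13 of 18. Over all genes listed in both libraries, 6682 of 11383 had a log2 ratio above 0. The link with neighbours was not worked out for genes outside the set, so it is not shown to be particular to the members. The link with whole chromosomes was looser (r = 0.42, rho = 0.50).

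**Figure D5:**
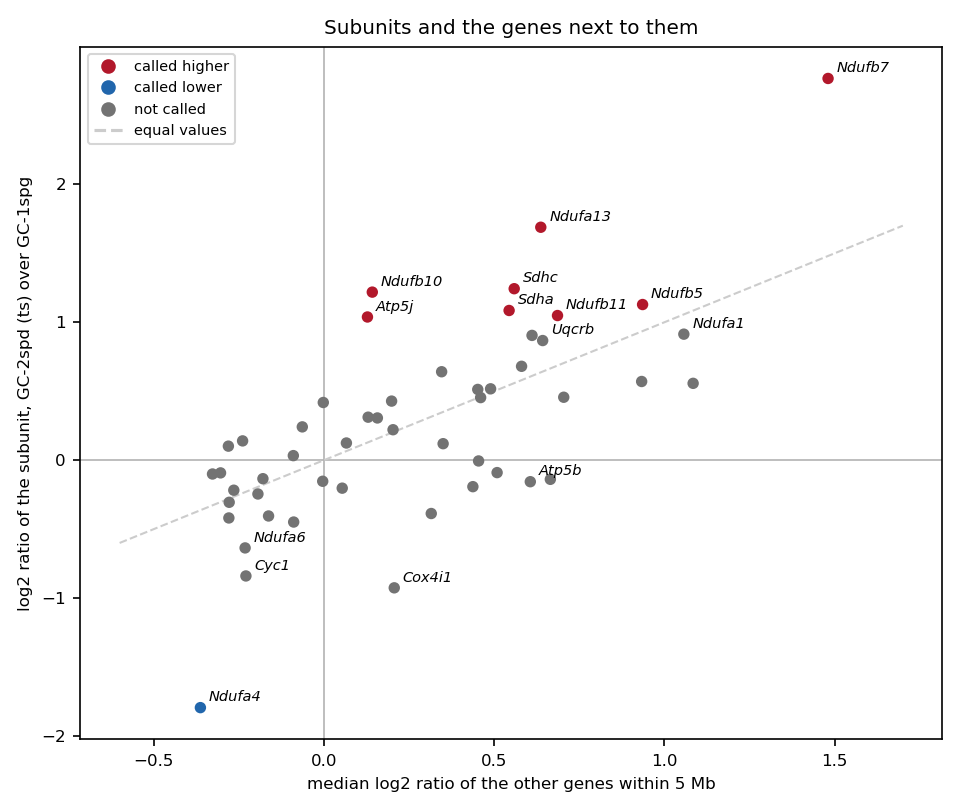
Log2 ratio of each of 51 members against the median log2 ratio of the other genes within 5 Mb, with called members in colour and the dashed line marking equal values. Points run from lower left to upper right (Pearson's r = 0.70), and Ndufb7, Ndufb10, Ndufa13 and Atp5j lie furthest above their neighbours while Cox4i1 and Ndufa4 lie furthest below theirs.

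Ndufb7, the member with the largest ratio, lies on chromosome 8 among 62 genes whose median log2 ratio was 1.48, itself far above the 0.41 of the whole chromosome. Ndufb5 on chromosome 3 (neighbours 0.94), Ndufb11 on chromosome X (0.69), Ndufa13 on chromosome 8 (0.64), Sdhc on chromosome 1 (0.56) and Sdha on chromosome 13 (0.54) also lay among genes with positive medians. Each of these genes still lay above the median of its neighbours. Their log2 ratios were 2.77 for Ndufb7, 1.69 for Ndufa13, 1.24 for Sdhc, 1.13 for Ndufb5, 1.09 for Sdha and 1.05 for Ndufb11. The neighbours of Ndufb10 and Atp5j were closer to 0, at 0.14 and 0.13. Cyc1 and Ndufa6 on chromosome 15 lay among genes at -0.23 each, and Ndufa4 on chromosome 6 among genes at -0.36. Cox4i1, on chromosome 8 as well, stood at -0.93 among genes at 0.21. On chromosome X, where the median of 213 other genes was 0.69, all 3 members (Ndufa1, Ndufb11 and Cox7b) had positive ratios, and on chromosome 15, where it was -0.31 over 318 genes, 3 of 4 had negative ones. The part of the neighbourhood in the members' ratios was not tested.

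Some members could not be read because their tags are not theirs alone. The main tags of 4 of them show how.
Cox5b: CATGatagcagcacagaaggg
Cycs: CATGgctaaccaccaggaggc
Cox5a: CATGtaatagtaacttggact
Uqcrc2: CATGcgtgtatttaaagctca
The Cox5b tag, at chr1:36692260-36692280 (plus strand), had 1562 and 1757 copies but also matches Gm11273, a copy annotated as protein coding, which left Cox5b with no tag of its own. Cycs, the electron carrier between complexes III and IV, kept 14 and 23 tags, and 927 and 1083 when those shared with Gm10053 were counted, a log2 ratio of 0.33. The Cox5a tag, at chr9:57532377-57532397 (plus strand), had 1374 and 2512 copies and is also the antisense of Gm26631, a noncoding gene. With sense matches preferred Cox5a had 1394 and 2549 tags (log2 ratio 0.97), and Uqcrc2, whose tags are antisense to Pdzd9, had 634 and 542. In the same way Ndufb2 had 176 and 257 tags with those shared with Gm42420, and Ndufb8 had 314 and 277 with those shared with Gm20538. Cox7a2 offered a single reference tag, which neither library listed, and since single copies had been removed, a transcript at that level cannot be told from none. In these readings none of the 6 genes was called.

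Lists of genes that act with the respiratory chain were read alongside. Of 21 further subunits not in the set, Ndufc1 was called higher (487 and 974 tags) and Uqcr10 lower (14 tags in GC-1spg against none in GC-2spd (ts)), the median log2 ratio was 0.10, and Ndufb1 had no tag. Of 47 assembly factors, which build the complexes without being part of them, Ndufaf2 (167 and 342 tags) and Atpaf1 (61 and 120) were called higher and Cox14 (931 and 405) lower, and Sco2, Cox20 and Pet117 had no tag. Of the further subunits 4.76% were called higher and 4.76% lower, and of the assembly factors 4.26% and 2.13%. Over all genes these shares were 11.9% and 7.95%. None of 14 regulators of mitochondrial biogenesis was called. Ppargc1a, the coactivator that drives many respiratory genes in other tissues, had 11 and 5 tags, Nrf1 118 and 118, Gabpa 398 and 455, and Tfam 235 and 275. The isoforms that replace common subunits in testis or muscle were all but absent: Cyct, Cox4i2, Cox6b2, Cox7b2, Cox8b and Cox8c had no tag, and Cox6a2, Cox7a1 and Ndufa4l2 had at most 8 copies in a library. Cyct, Cox6b2, Cox7b2 and Cox8c are known for their expression in male germ cells.

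Subunits encoded by mitochondrial DNA summed to more tags than the nuclear ones. The 10 of 13 mitochondrial mRNAs with a tag summed to 20752 TPM in GC-1spg against 20633 TPM in GC-2spd (ts), for a log2 ratio of -0.01, and mt-Nd1, mt-Nd4l and mt-Nd6 had none. Within this level sum, mt-Co1, the catalytic subunit of complex IV, was called lower with 26103 and 7388 tags (log2 ratio -1.72), while mt-Co3 had 29143 and 38540 tags (0.50) and mt-Nd2 had 5076 and 8263 (0.80). Of those with a tag, mt-Atp6 (1238 and 630 tags) and mt-Atp8 (178 and 87) had the fewest, below the counts of many nuclear subunits. How closely these counts follow the level of each mitochondrial mRNA was not tested.

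In the citric acid cycle, which feeds the chain, 3 of 16 genes were called higher, or 18.75%, beside 11.9% of all genes. These were Idh3a (425 and 1028 tags), Idh3b (23 and 469) and Pdha1 (1028 and 1995). Suclg2 (209 and 84 tags) was among those called lower, 12.5% of the 16, beside 7.95% of all genes. The median log2 ratio of the 16 was -0.13, with 6 genes above 0 and 10 below. The glycolytic genes differed from the respiratory set. Of 15, 4 were called lower, beside 7.95% of all genes, and none higher, beside 11.9%, with a median log2 ratio of -0.67 and a summed ratio of -0.85 (interval -0.86 to -0.83), so that their interval and that of the respiratory sum (0.07 to 0.10) were apart. Ldha, the muscle-type lactate dehydrogenase subunit, had 25214 and 10440 tags, Pgk1 18059 and 8261, Gpi1 1398 and 622, and Ldhb 410 and 19. Ldha and Pgk1 held most of that difference in tags. Among the 13 glycolytic genes with 100 tags or more, the interval lay below 0 for 9, above 0 for 2 and included 0 for 2. Those above 0 were Hk2 (241 and 391 tags, log2 ratio 0.80) and Pfkp (194 and 276 tags, 0.61). Gapdh and Eno1 kept at most 10 unambiguous tags each in a library.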

How the data were processed

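Total RNA of both lines was made into tag libraries (digital gene expression, NlaIII and MmeI, CATG plus 17 bases). Per the study's methods, adaptor tags, low quality tags and single copies had been removed, and the deposited count of each remaining tag is its copy number, from 2 upwards. The deposited TPM is that count per 1000000 clean tags, and was not used further, since TPM was recomputed from the counts. All 573182 sense CATG tags of the 141767 GENCODE M21 transcripts (GRCm38) and their antisense tags were taken, and each library tag was matched with at most 1 mismatch, exact matches first. A tag was unambiguous if its only match, sense or antisense, outside pseudogenes was 1 gene.

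Unambiguous sense counts of a gene were added up and divided by all clean tags. For calls, the Audic-Claverie test (two-sided) was adjusted by Benjamini-Hochberg over all genes, with 0.01 TPM for a gene not listed in 1 library. Thresholds follow the study's methods, and the matching reference (GENCODE, not UniGene) does not. With 1 library per line, edgeR's quasi-likelihood test could not be fitted, so no p-value is given. Intervals are exact (Clopper-Pearson, conditional binomial, 95%) and cover counting error only. The test was checked on simulated counts that carried counting error only. That check cannot show how the test fares with spread between cultures. Every member is named, with values for called genes, the 3 highest and 3 lowest log2 ratios of complexes I, IV and V, all of complexes II and III and cytochrome c, the leading gene of each complex and genes with no tag. The members and gene lists were chosen with earlier results of these data known. Alternatives are given in the closing section, and 1 gene outside the set is not reported here. Python 3.11.15, scipy 1.17.1, R 4.3.3 and edgeR 4.0.16 (TMM factors and exact tests with an assumed spread) were used. Reference sequences came from GENCODE.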

Additional observations from a re-analysis of the deposited data

Results flagged for a closer look

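Tags on the strand opposite to the members' transcripts were listed too, though no comparison above uses them. They came to 4764 copies in GC-1spg against 2799 copies in GC-2spd (ts), over the 57 members with such a tag. Their log2 ratio was -0.67 (interval -0.73 to -0.60), beside -0.17 for antisense tags of all genes. Of the 50 members with 30 antisense copies or more, 42 had a log2 ratio below 0, or 84%, beside 52.9% of the 4057 genes of that depth. Of the 29 among them with a sense log2 ratio above 0, the antisense ratio was below 0 in 22, as in Atp5j with 231 and 84 antisense copies beside 1123 and 2149 sense tags. It was above 0 in the other 7, which were Ndufb7 (60 and 76 antisense copies), Ndufv1 (41 and 48), Ndufv2 (75 and 91), Sdha (40 and 40), Sdhc (11 and 20), Uqcrb (60 and 58) and Uqcrh (105 and 104). Of the 6 called higher at this depth, 3 thus had an antisense ratio below 0 and 3 above it. Of the 21 members at this depth with a sense log2 ratio below 0, the antisense ratio was below 0 in 20 and above it in 1. Whether these tags come from antisense transcripts or from the other strand of the cDNA was not tested.

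Tags that differ from a member's reference tag by 1 base were flagged where they reached 30 copies and 5% of the reference tag. Positions are counted from 1 at the C of CATG, and capitals after the CATG mark the substituted base. For Sdhd, the membrane anchor of complex II, the form C10G had 64 copies in GC-2spd (ts) and none in GC-1spg, while the reference form had 529 copies in GC-1spg against 392 in GC-2spd (ts), so that the form made up 14.04% of both forms in 1 library.
Sdhd, reference: CATGaagctCgaaagtattcc
Sdhd, C10G: CATGaagctGgaaagtattcc
For Cox6b1 the form G7T had 188 copies in GC-1spg against 157 in GC-2spd (ts), 6.75% and 5.83% of both forms. An antisense tag of Uqcrb showed the form T9C with 51 copies in GC-1spg against none in GC-2spd (ts), where the reference form had none and 40 copies. An antisense tag of Cox8a showed the form C21A with 82 and 36 copies beside 28 and 5 of the reference form.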

How the results depend on the processing

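No paired analysis was possible because each line has 1 library and the labels carry no replicate numbers, and for the same reason no replicate could be left out. With exact matches, with pseudogenes kept as matches, with sites nearest the 3′ end, with sense matches preferred, with at least 10 tags, with 0.5 tags added and, chosen after seeing the data, with transcripts extended by poly(A), 8 members were called higher and 1 lower, and the same 9 genes were kept. With shared sense tags counted, 7 and 1 were called, without Ndufb5. TMM scaling gave 4 members higher and 3 lower, losing Ndufb5, Ndufb11, Sdha and Atp5j and adding Cox4i1 and Cyc1, and scaling to unambiguous tags gave 6 and 2, losing Ndufb11 and Atp5j and adding Cox4i1. These follow from the shift of all ratios by the scaling.

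An assumed coefficient of variation of 0.2 left 1 member higher and 1 lower, with 509 and 489 of all genes, and 0.4 left 0 and 0, with 107 and 136 of all genes. Against 0.09, the log2 ratio of the members' sum was 0.056 with pseudogenes kept, 0.11 with sense matches preferred, 0.0037 when scaled to unambiguous tags, -0.025 with shared tags and -0.094 under TMM scaling. The sum of complex I turned to -0.24 with shared tags, -0.11 under TMM scaling and -0.0085 when scaled to unambiguous tags. Atp5c1 turned to -0.060 under TMM scaling and Atp5f1 to -0.31 with pseudogenes kept. The cause was not tested where it is not named.

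At this depth, genes under 100 tags (Ndufb2, Ndufs1, Ndufs6, Uqcrc2, Cycs, Cox5a) had intervals too wide for a comparison. Ndufs1 had 176 and 144 tags with transcripts extended by poly(A). The spread between cultures of 1 line was not measured.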
